A study of Mus musculus with 6 samples.

Results

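The genes described here encode the molecules of the major histocompatibility complex (MHC) and the proteins that load them with peptide. They are the protein-coding rows of the deposited gene table whose symbol starts with H2-, together with B2m, Cd74, Ciita, Nlrc5, Tap1, Tap2 and Tapbp, chosen by name and biotype and by no measured value. The rule found 41 of 54532 genes, of which 34 carry an H2- symbol, and 29 of the 41 had enough counts to be tested. Of the 41 genes, 37 lie on chromosome 17, while B2m lies on chromosome 2, Nlrc5 on chromosome 8, Ciita on chromosome 16 and Cd74 on chromosome 18.

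The RNA came from inguinal white adipose tissue, a fat depot under the skin of the groin that surrounds a lymph node in the mouse. The 3 Cdo1AKO samples came from mice in which Cdo1, the gene of cysteine dioxygenase, was deleted in adipose tissue. The 3 control samples came from Cdo1 flox/flox mice, which the labels also call WT. Both groups were put on a high fat diet at 8 weeks of age and kept on it for 15 weeks. The promoter or Cre line behind the deletion is not stated in those labels. They also do not say whether a group's samples are separate animals, and the p-values then reflect the variation among these libraries alone, some of which may be technical.

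Class I molecules sit on nearly every nucleated cell and show peptides from the cell's interior to CD8 T cells. The classical ones, H2-K and H2-D, are polymorphic, while the non-classical ones of the Q, T and M regions vary less and often bind few peptides or other receptors. Class II molecules are made mainly by B cells, dendritic cells and macrophages, and show peptides from engulfed material to CD4 T cells. The non-classical class II molecules work inside the cell, where H2-DM exchanges peptides and H2-O inhibits H2-DM.

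The libraries held 16275184 to 19205804 counts. Cdo1 had 123, 392 and 134 CPM in Cdo1AKO 1 to 3, against 887, 432 and 631 CPM in control 1 to 3, where CPM is the count scaled by library size and TMM factor. The groups did not overlap, and Cdo1AKO 2 stood close to control 2 (log2 fold change -1.59 ± 0.53, adjusted p = 0.416 by edgeR's quasi-likelihood test; SE). Markers of B cells, 9 genes such as Ms4a1 and Cd79a, summed to 738, 7.40 and 761 CPM in Cdo1AKO 1 to 3, against 2.45, 1159.8 and 673 CPM in control 1 to 3. Markers of lymph node stroma, 8 genes, summed to 129, 5.15 and 109.7 CPM in Cdo1AKO 1 to 3, against 7.06, 175 and 84.6 CPM in control 1 to 3, and Glycam1, Chst4, Ccl21a and Ccl19 were at 0 in both Cdo1AKO 2 and control 1. Ccl19 was plain in Cdo1AKO 1 alone, at 23.1 CPM, with at most 0.384 CPM in any other library. Cxcl13 kept 4.11 CPM in control 1, and Il7 kept 4.12 CPM in Cdo1AKO 2 and 2.58 CPM in control 1. Most lymph node transcripts were therefore near 0 in 1 library of each group and plain in the other 4, a split that crosses the genotypes. Cdo1AKO 1 and Cdo1AKO 3 were more alike than any other pair of a group, with a chi-square of 5.59 per gene against 23.1 to 204, and still differed by more than sampling noise.

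No MHC or antigen presentation gene passed the comparison of Cdo1AKO with control at an adjusted p under 0.05 in the edgeR fit, and neither did any of the 16623 genes tested (0% called). At an unadjusted p under 0.05 the fit held 1724 genes (10.4%), and among them were 2 of the 29 genes described here. Tapbp was the 1 gene of the 29 on the higher side, where the background was 4.66%, and H2-Q10 was the 1 on the lower side, where it was 5.71%. These were also the only 2 of the 29 whose groups did not overlap, and the background was 8.87% for Cdo1AKO above control and 9.73% for Cdo1AKO below control. Of the 29 log2 fold changes, 22 were positive with a median of 0.28, beside 56.0% positive and a median of 0.058 over all genes tested. DESeq2 called 271 of 29966 genes (0.904%), and the 1 gene of the list among them was H2-Q10.

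The libraries differed along a line that crosses the genotypes. In 19 of the 29 genes, Cdo1AKO 2 and control 1 both stood below all 4 other libraries, a pattern that 22.3% of all genes tested showed. These 19 were 10 of the 11 class II, Cd74 and Ciita genes, 7 of the 11 non-classical class I genes, Nlrc5 and Tap1, and neither classical class I gene. In bulk tissue, fewer cells of a type and less RNA per cell cannot be told apart. 2 further fits were chosen after seeing the data: one with a term for the libraries with lymph node transcripts, and one over those 4 libraries alone, Cdo1AKO 1 and 3 against control 2 and 3. That term gave 686 calls over all genes (4.13%), 2 of them among the 29 genes. The 4 libraries gave 2617 calls of 17049 genes (15.3%), with 10 of the 31 genes of the list that could be tested there.

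**Figure D1:**
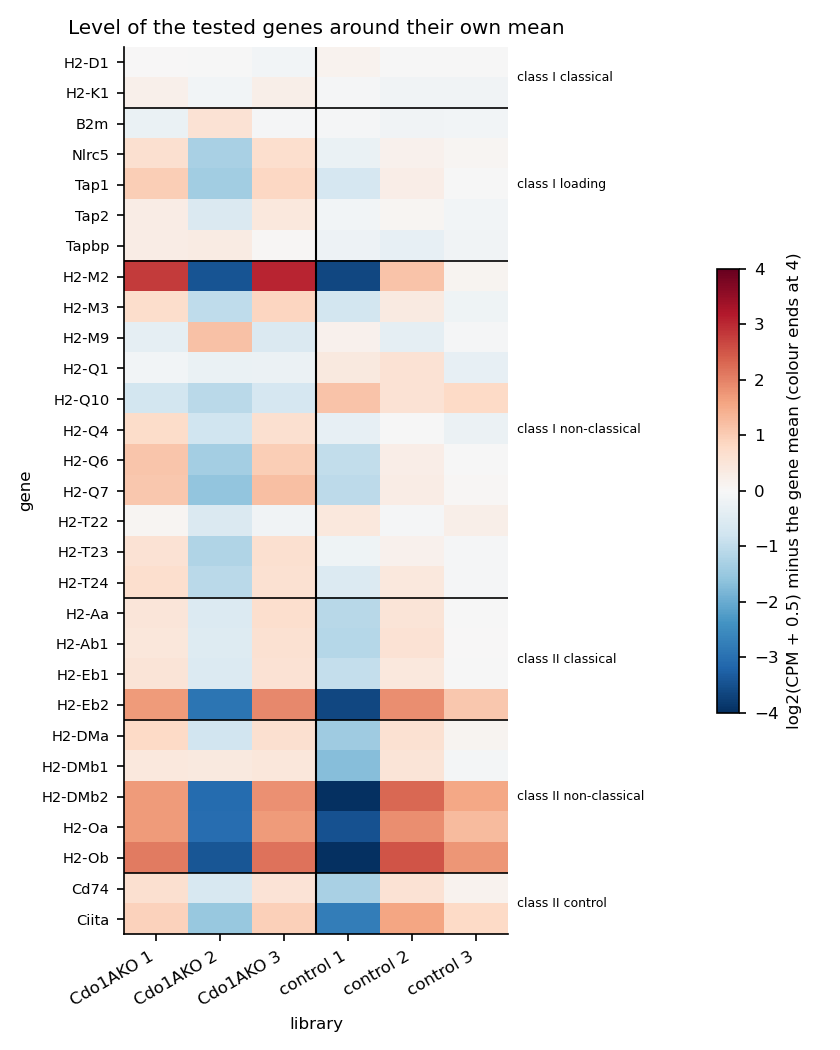
Level of the 29 tested genes in each library, as log2 CPM with a small constant added, minus the gene's mean over the 6 libraries; red is above and blue below that mean. Cdo1AKO 2 and control 1 are the 2 lowest libraries in 19 of the 29 genes, while H2-D1 and H2-K1 are near white in all libraries and H2-Q10 is blue in every Cdo1AKO and red in every control library.

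Per length of transcript, class I was the more abundant class, and the sum of its classical genes barely varied. The deposited FPKM values (fragments per kilobase of gene, scaled to the library) of H2-K1 and H2-D1 summed to 1886, 1672 and 1843 FPKM in Cdo1AKO 1 to 3, against 1852, 1659 and 1667 FPKM in control 1 to 3. Those of the 22 non-classical class I genes summed to 699, 203 and 681 FPKM in Cdo1AKO 1 to 3, against 347, 459.7 and 414 FPKM in control 1 to 3. The 4 classical class II genes summed to 1209.8, 592 and 1319 FPKM in Cdo1AKO 1 to 3, against 418, 1213 and 849.8 FPKM in control 1 to 3. The classical class I sums overlapped between the groups and spanned a narrow range, whereas the non-classical class I and the class II sums were lowest in Cdo1AKO 2 and control 1. The 5 non-classical class II genes summed to 169.8, 50.6 and 171 FPKM in Cdo1AKO 1 to 3, against 17.1, 201 and 127 FPKM in control 1 to 3, with control 1 lowest. As a share of all class I FPKM, the non-classical genes made up 27.0%, 10.8% and 27.0% in Cdo1AKO 1 to 3, against 15.8%, 21.7% and 19.9% in control 1 to 3. Cdo1AKO 1 and 3 were above every control library in that share and Cdo1AKO 2 was below every one.

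**Figure D2:**
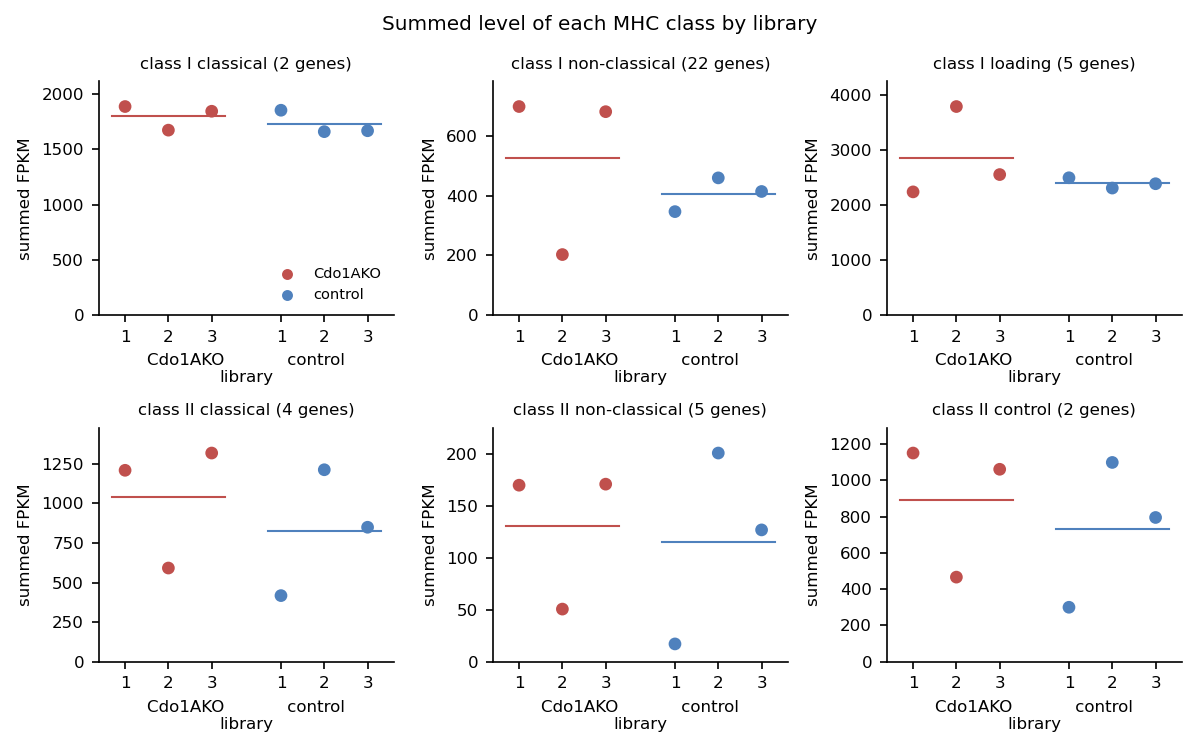
Summed FPKM of each class by library, Cdo1AKO in red and control in blue, with the group mean as a line. Classical class I sums lie between 1659 and 1886, while classical class II sums run from 418 to 1319 and are lowest in control 1 and Cdo1AKO 2.

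By class, the median log2 fold change of Cdo1AKO over control was 0.065 for the 2 classical class I genes, 0.41 for the 11 tested non-classical class I genes and 0.25 for the 5 loading genes. It was 0.32 for the 4 classical class II genes, 0.12 for the 5 non-classical ones and 0.037 for Cd74 and Ciita. In the 4 libraries with lymph node transcripts, where the median over all genes was 0.0037, the medians were 0.15, 0.54 and 0.40 for the 3 class I groups in the same order. There they were 0.29, 0.11 and -0.042 for the 3 class II groups. The class I groups held 9 of the 10 calls in those 4 libraries among genes that all 6 libraries could test, and the class II groups held 0, beside the 15.3% of all genes. That count names H2-M2, H2-M3, H2-Q4, H2-Q6, H2-Q7, H2-T23, Nlrc5 and Tap1 on the higher side and H2-Q10 on the lower side. The tenth call was H2-M5, which could not be tested over all 6 libraries. Whether the classes differ from each other was not tested.

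**Figure D3:**
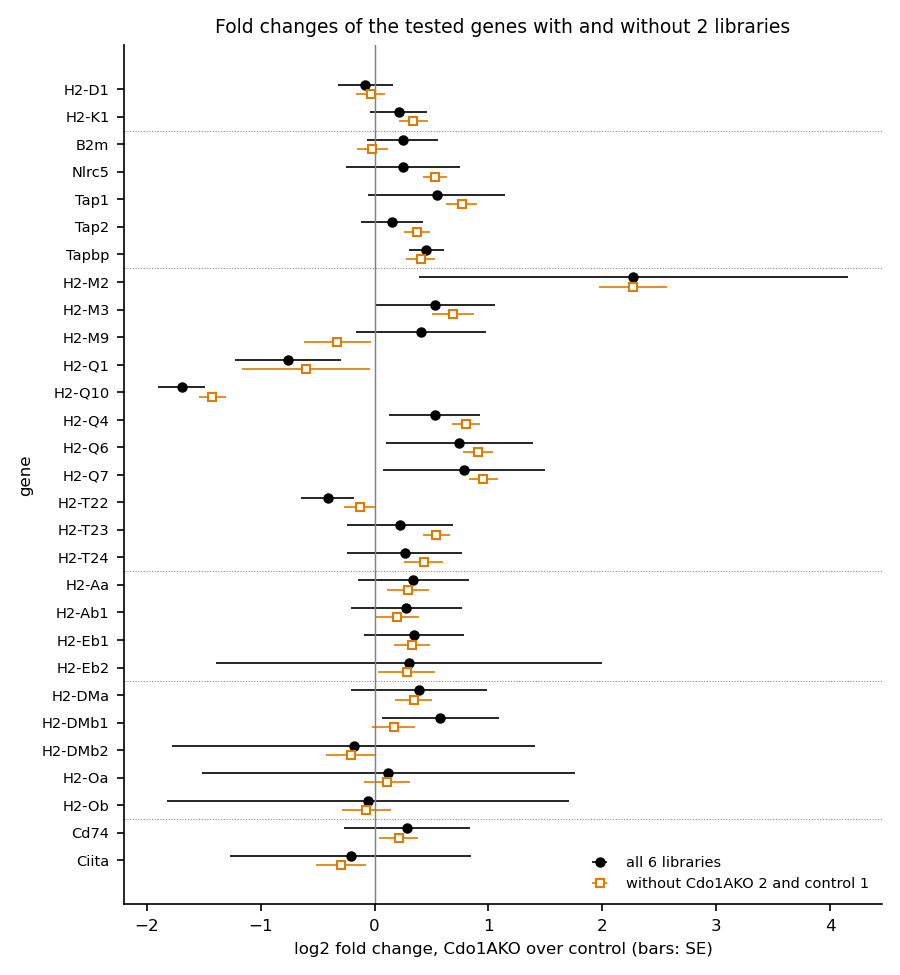
Log2 fold change of Cdo1AKO over control for the 29 tested genes, with SE bars, over all 6 libraries (black) and over the 4 libraries left without Cdo1AKO 2 and control 1 (orange). H2-Q10 lies at -1.69 and -1.42, H2-M2 at 2.27 in both, and the bars of the class II genes shorten from up to 1.76 to at most 0.25 once the 2 libraries are left out.

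H2-D1 and H2-K1, the classical class I heavy chains that present peptide to CD8 T cells, did not differ between the groups beyond the spread of the libraries. H2-D1 (ENSMUSG00000073411, mm10 chr17:35262730-35267499, plus strand) had 2382, 2351 and 2217 CPM in Cdo1AKO 1 to 3, against 2649, 2331 and 2369 CPM in control 1 to 3. The groups overlapped, and the log2 fold change was -0.080 ± 0.24, adjusted p = 0.924 (edgeR; SE, 3 libraries per group). H2-K1 (ENSMUSG00000061232, mm10 chr17:33996017-34000333, minus strand) had 2526, 2021 and 2591 CPM in Cdo1AKO 1 to 3, against 2137, 2013 and 2014 CPM in control 1 to 3. Cdo1AKO 1 and 3 were above all controls and Cdo1AKO 2 was level with control 2 and 3 (log2 fold change 0.21 ± 0.25, adjusted p = 0.792 by edgeR). In FPKM, H2-K1 stood at 105%, 85.0% and 116% in Cdo1AKO 1 to 3, against 79.8%, 85.4% and 84.1% in control 1 to 3 of H2-D1. B2m, the light chain of class I molecules, had the highest mean FPKM of the list. Its level was 1764, 3171 and 2054 CPM in Cdo1AKO 1 to 3, against 2036, 1891 and 1969 CPM in control 1 to 3. Cdo1AKO 2 alone stood apart, at the top, and the groups overlapped (log2 fold change 0.25 ± 0.31, adjusted p = 0.802 by edgeR).

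Tapbp encodes tapasin, which holds empty class I molecules at the peptide transporter until they bind peptide well. It had 339, 350.5 and 287 CPM in Cdo1AKO 1 to 3, against 242, 222 and 249 CPM in control 1 to 3. All 3 Cdo1AKO libraries were above all 3 controls, with means of 325 ± 33.5 CPM in Cdo1AKO and 238 ± 14.2 CPM in control (SD, n = 3 each). The edgeR log2 fold change, 0.45 ± 0.15, adjusted p = 0.417, did not pass, and over 17 alternatives the adjusted p ran from 0.0765 to 0.939. The value was 0.40 ± 0.13, adjusted p = 0.0765 in the 4 libraries with lymph node transcripts. Tapbp (ENSMUSG00000024308, mm10 chr17:33915899-33929288, plus strand) overlaps Zbtb22 on its own strand and Gm19412 on the other, and 14.0% of the 100-base stretches of its transcript also occur in other genes. Those stretches occur in Gm19412 and AC122861.4, and reads from them cannot be told apart here.

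Tap1 and Tap2 form the transporter that carries peptides into the endoplasmic reticulum, and Nlrc5 is the transactivator of class I genes. Tap1 had 226, 43.2 and 203 CPM in Cdo1AKO 1 to 3, against 71.9, 139 and 113 CPM in control 1 to 3. Nlrc5 had 200.1, 51.0 and 203 CPM in Cdo1AKO 1 to 3, against 105, 143 and 134 CPM in control 1 to 3. In both genes Cdo1AKO 1 and 3 were above every other library and Cdo1AKO 2 was below every other one. Over the 4 libraries with lymph node transcripts Tap1 rose by 0.77 ± 0.13, adjusted p = 0.0137, and Nlrc5 rose by 0.53 ± 0.10, adjusted p = 0.0191 (log2, edgeR). Over all 6 libraries the values were 0.55 ± 0.60, adjusted p = 0.771 for Tap1 and 0.25 ± 0.50, adjusted p = 0.881 for Nlrc5, and over the alternatives the adjusted p ran from 0.0137 to 0.989 and from 0.0191 to 0.998. Leaving out 1 library at a time moved the log2 fold change of Nlrc5 from -0.020 to 0.66. Tap2 had 113, 61.1 and 122 CPM in Cdo1AKO 1 to 3, against 85.4, 97.0 and 84.0 CPM in control 1 to 3, with Cdo1AKO 1 and 3 highest and Cdo1AKO 2 lowest here too, and control 1 level with control 3 (log2 fold change 0.15 ± 0.27, adjusted p = 0.862; in the 4 libraries 0.37 ± 0.11, adjusted p = 0.0702). Tap1 overlaps the proteasome gene Psmb9 on the other strand.

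H2-Q10 separated the genotypes in all 6 libraries, with Cdo1AKO on the lower side. It encodes a secreted class I molecule known in mice as a product of the liver. H2-Q10 (ENSMUSG00000067235, mm10 chr17:35470089-35474563, plus strand) had 36.7, 28.9 and 38.7 CPM in Cdo1AKO 1 to 3, against 136, 92.9 and 109 CPM in control 1 to 3. Every Cdo1AKO library was below every control library, and Cdo1AKO 2 and control 1, the libraries without lymph node transcripts, kept to the side of their genotype. The means were 34.8 ± 5.19 CPM in Cdo1AKO and 113 ± 21.8 CPM in control (SD, n = 3 each), and in FPKM 7.95 ± 1.203 FPKM in Cdo1AKO and 25.7 ± 5.21 FPKM in control. Over all 6 libraries the edgeR log2 fold change, -1.69 ± 0.20, adjusted p = 0.229, did not pass.

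H2-Q10 fell with DESeq2 (adjusted p = 2.49e-07), in the edgeR fit with the term for lymph node transcripts (-1.69 ± 0.19, adjusted p = 0.0222; background on the lower side 1.87%) and in the 4 libraries with lymph node transcripts (-1.42 ± 0.12, adjusted p = 0.00276 by edgeR). In the authors' deposited table it had a log2 fold change of -1.69 and an adjusted p of 2.35e-07, among 275 of 27492 genes under 0.05 (1%). That comparison rests on the same counts as the DESeq2 fit and its fold changes nearly match, so it is not separate support. The log2 fold change stayed between -1.82 and -1.42 over 17 alternatives, and the adjusted p ran from 2.49e-07 to 0.937. In FPKM, H2-Q10 stood at 0.915%, 0.729% and 1.04% in Cdo1AKO 1 to 3, against 3.05%, 2.36% and 2.72% in control 1 to 3 of H2-D1. Since H2-D1 varied little, from 2217 to 2649 CPM, this share repeats the separation of H2-Q10 and adds no support to it. Adipocyte markers, 10 genes, summed to 23567, 56451 and 26016 CPM in Cdo1AKO 1 to 3, against 58153, 39479.5 and 45196 CPM in control 1 to 3. Of these 10, 2 were lower at an unadjusted p under 0.05 (Cfd and Slc2a4), where the background was 5.71%. The adipocyte sum was lower in Cdo1AKO 1 and 3 than in every control, and in Cdo1AKO 2 it lay within the control range. The part of adipocyte content in the H2-Q10 difference was not tested. H2-Q10 overlaps no other annotated gene, and 2.06% of the 100-base stretches of its transcript occur elsewhere, in H2-Q1, H2-T22 and an H2-T pseudogene among others.

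**Figure D4:**
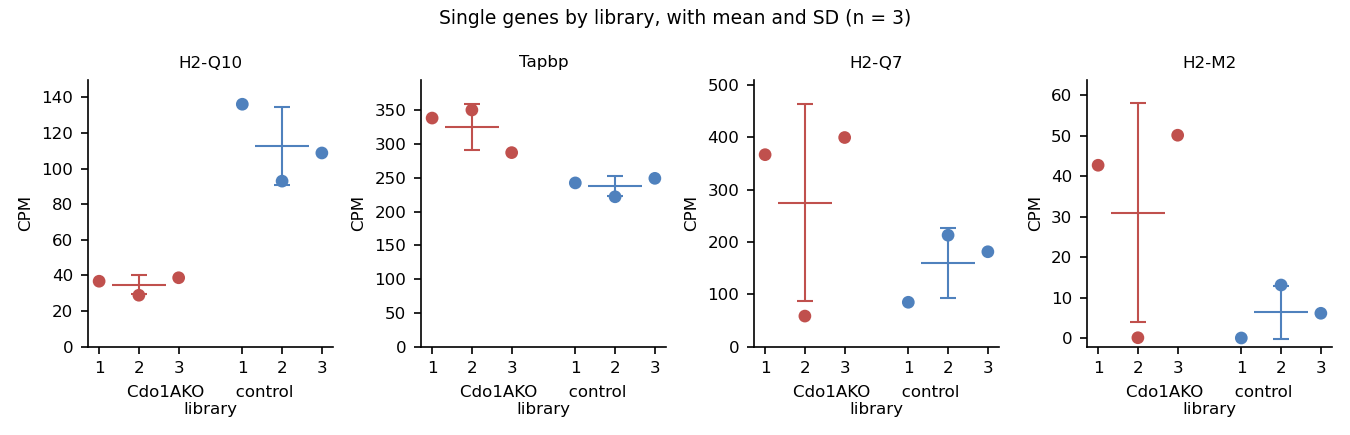
CPM of H2-Q10, Tapbp, H2-Q7 and H2-M2 in each library, Cdo1AKO in red and control in blue, with the group mean and SD (n = 3). The highest Cdo1AKO point of H2-Q10 is 38.7 and its lowest control point 92.9, Tapbp is separated the other way, and in H2-Q7 and H2-M2 Cdo1AKO 1 and 3 lie above the controls while Cdo1AKO 2 lies with or below them.

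The start regions of H2-Q10, of H2-D1 and of H2-Q6 are shown since these 3 near relatives took different courses in the same libraries. Each runs from 250 bases before to 50 bases after the start that RefSeq gives, 5′ to 3′, on build GRCm38.p6. The regions are chr17:35469839-35470138, chr17:35262844-35263143 and chr17:35424600-35424899, all on the plus strand. Capitals mark matches, on either strand, to GGGGATTCCCC, a kappa B type site of class I promoters, read from H2-D1, and to CCAAT, which NF-Y binds and which reads ATTGG on the other strand. The 2 motifs do not overlap.
H2-Q10: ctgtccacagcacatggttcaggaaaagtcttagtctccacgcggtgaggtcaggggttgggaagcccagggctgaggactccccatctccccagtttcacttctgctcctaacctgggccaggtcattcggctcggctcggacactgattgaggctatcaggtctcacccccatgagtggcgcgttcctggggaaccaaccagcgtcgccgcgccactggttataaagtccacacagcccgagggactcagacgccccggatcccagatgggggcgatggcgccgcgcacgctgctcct
H2-D1: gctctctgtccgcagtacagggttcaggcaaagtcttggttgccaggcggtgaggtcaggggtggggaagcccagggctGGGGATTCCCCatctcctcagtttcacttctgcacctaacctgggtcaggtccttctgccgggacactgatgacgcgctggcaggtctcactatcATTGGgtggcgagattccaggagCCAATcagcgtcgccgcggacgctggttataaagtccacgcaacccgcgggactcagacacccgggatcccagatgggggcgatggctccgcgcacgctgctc
H2-Q6: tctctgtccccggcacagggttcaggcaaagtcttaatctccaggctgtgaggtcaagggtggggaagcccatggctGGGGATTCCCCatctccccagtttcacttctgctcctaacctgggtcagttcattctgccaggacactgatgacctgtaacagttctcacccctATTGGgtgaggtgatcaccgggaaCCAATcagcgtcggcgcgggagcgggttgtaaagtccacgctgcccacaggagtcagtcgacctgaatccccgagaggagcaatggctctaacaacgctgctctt
The H2-Q10 region held neither of these letter strings. Aligned to H2-D1 it was identical at 254 of 291 bases (87.3%). Where H2-D1 reads ggggattcccc, H2-Q10 reads gaggactcccc, with 2 differences, and of the 2 CCAAT matches of H2-D1, ccaat is aligned to ccaac, with 1 difference, and attgg to a-tga, with 2 differences, counting the gap. Among 32851 promoters of the RefSeq table, GGGGATTCCCC occurred in 10 (0.0304%), those of H2-D1, H2-K1 and H2-Q6 among them. CCAAT occurred in 12289 (37.4%), and in 31 of the 34 genes of the list that have an entry in the table. A match describes letters only, and the missing letters say nothing on whether a factor binds.

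In 7 of the 11 tested non-classical class I genes Cdo1AKO 2 and control 1 were the lowest libraries, and Cdo1AKO 1 and 3 were the highest. H2-Q6 and H2-Q7 encode Qa-2, a class I molecule anchored in the membrane by a lipid. H2-Q6 had 434, 79.3 and 398 CPM in Cdo1AKO 1 to 3, against 102, 241 and 202 CPM in control 1 to 3. H2-Q7 had 367, 58.5 and 399.7 CPM in Cdo1AKO 1 to 3, against 84.9, 213 and 181 CPM in control 1 to 3. H2-Q4, which encodes the Q region molecule Qb-1, had 408, 141 and 388 CPM in Cdo1AKO 1 to 3, against 195, 244 and 211 CPM in control 1 to 3. In all 3 genes Cdo1AKO 1 and 3 exceeded every control, and Cdo1AKO 2 was lower than every control. Over the 4 libraries with lymph node transcripts the 3 genes rose, H2-Q6 by 0.91 ± 0.13, adjusted p = 0.00749, H2-Q7 by 0.95 ± 0.13, adjusted p = 0.00661 and H2-Q4 by 0.80 ± 0.12, adjusted p = 0.00845 (log2, edgeR). Over all 6 libraries the log2 fold changes were 0.74 ± 0.65, adjusted p = 0.711 for H2-Q6, 0.78 ± 0.71, adjusted p = 0.723 for H2-Q7 and 0.53 ± 0.40, adjusted p = 0.683 for H2-Q4. Their adjusted p ran over the alternatives from 0.00749 to 0.984, from 0.00661 to 0.985 and from 0.00845 to 0.984. Of the 100-base stretches of these transcripts, 13.0%, 16.4% and 13.9% occur in other genes, H2-Q6 and H2-Q7 sharing with each other, so the split of reads between them is uncertain.

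H2-T23 encodes Qa-1, the ligand of the CD94 and NKG2A receptor of natural killer cells. It had 280.2, 80.1 and 293 CPM in Cdo1AKO 1 to 3, against 167, 211 and 182 CPM in control 1 to 3. H2-M3, which presents formylated bacterial peptides, had 37.4, 11.1 and 42.1 CPM in Cdo1AKO 1 to 3, against 13.5, 29.2 and 19.9998 CPM in control 1 to 3. H2-T24 had 29.4, 8.30 and 27.9 CPM in Cdo1AKO 1 to 3, against 12.3, 24.7 and 17.7 CPM in control 1 to 3. Cdo1AKO 1 and 3 were the highest libraries in each of these 3 genes, and Cdo1AKO 2 was the lowest. In the 4 libraries with lymph node transcripts H2-T23 rose by 0.54 ± 0.12, adjusted p = 0.0264 and H2-M3 rose by 0.69 ± 0.18, adjusted p = 0.0455 (log2, edgeR), and H2-T24 was at 0.43 ± 0.17, adjusted p = 0.131. Over all 6 libraries H2-T23 was at 0.22 ± 0.47, adjusted p = 0.886 and H2-M3 at 0.53 ± 0.53, adjusted p = 0.744. Over the alternatives the adjusted p of H2-T23 ran from 0.0264 to 0.9997 and that of H2-M3 from 0.0455 to 0.989, and with limma-voom the H2-T23 value was -0.012. H2-T22, whose product binds a receptor of gamma delta T cells, went with neither pattern. Its level was 252, 158 and 218 CPM in Cdo1AKO 1 to 3, against 322, 231 and 282 CPM in control 1 to 3. The groups overlapped (log2 fold change -0.41 ± 0.23, adjusted p = 0.592, edgeR). H2-M9 and H2-Q1 had at most 8.88 CPM and 1.44 CPM in any library.

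With Cdo1AKO 2 alone left out, 11 of 31 genes of the list were higher at an unadjusted p under 0.05 (H2-K1, H2-M3, H2-M5, H2-Q4, H2-Q6, H2-Q7, H2-T23, Nlrc5, Tap1, Tap2 and Tapbp), where the background was 11.8%. On the lower side H2-Q10 was the 1 gene, with a background of 15.5%. None of the 31 passed at an adjusted p under 0.05 in that fit, and neither did any other gene. That fit sets 2 Cdo1AKO libraries with lymph node transcripts against controls that include control 1, which had almost none. With any 1 of the other 5 libraries left out instead, 0 or 1 gene of the list was higher at that unadjusted p. All 11 are class I or class I loading genes. T cell and natural killer cell markers, 11 genes, summed to 919, 16.3 and 946 CPM in Cdo1AKO 1 to 3, against 15.4, 374 and 211 CPM in control 1 to 3. Those sums were higher in Cdo1AKO 1 and 3 than in control 2 and 3, the same order as in H2-Q4, H2-Q6, H2-Q7, Tap1 and Nlrc5, and their part in those differences was not tested. Cdo1AKO 1 and 3 are also the pair of libraries that resembled each other most.

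H2-M2 had the largest edgeR fold change of the 29 tested genes, and it was nearly absent from the libraries without lymph node transcripts. Its values are given in full because it was called with the lymph node term, a choice made after its values were seen. This M region gene (ENSMUSG00000016283, mm10 chr17:37480851-37483552, minus strand) had 42.7, 0.0643 and 50.2 CPM in Cdo1AKO 1 to 3, against 0, 13.1 and 6.11 CPM in control 1 to 3. Cdo1AKO 2 held 1 count and control 1 held 0 counts, which allows up to 0.184 CPM in control 1 by counting error. Cdo1AKO 1 and 3 were above control 2 and 3, and Cdo1AKO 2 lay below both of these controls. With the lymph node term H2-M2 rose by 2.28 ± 0.34, adjusted p = 0.0278 (log2, edgeR; background on the higher side 2.26%), and in the 4 libraries alone by 2.27 ± 0.30, adjusted p = 0.00673 (background 7.65%). Over all 6 libraries without the term it was at 2.27 ± 1.88, adjusted p = 0.700, and over the alternatives the adjusted p ran from 0.00673 to 0.984. Ccr7, a marker of migrating dendritic cells and of naive lymphocytes, had 149, 0.901 and 133 CPM in Cdo1AKO 1 to 3, against 0.245, 43.8 and 26.9 CPM in control 1 to 3. Dendritic cell markers, 10 genes, summed to 369, 136 and 358 CPM in Cdo1AKO 1 to 3, against 94.1, 179 and 149 CPM in control 1 to 3. Cd209a and Batf3 were the 2 higher at an unadjusted p under 0.05 over all 6 libraries, where the background was 4.66%. The part of these cells in the H2-M2 difference was not tested.

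In H2-Aa, H2-Ab1, H2-Eb1 and Cd74 the 4 libraries with lymph node transcripts were above the other 2, and the genotypes overlapped. H2-Aa and H2-Ab1 are the alpha and beta chains of I-A, and H2-Eb1 is the beta chain of I-E. H2-Aa had 636, 312 and 718 CPM in Cdo1AKO 1 to 3, against 212, 654 and 449 CPM in control 1 to 3. H2-Ab1 had 576, 298 and 641 CPM in Cdo1AKO 1 to 3, against 194, 633 and 423 CPM in control 1 to 3. H2-Eb1 had 608, 294 and 641 CPM in Cdo1AKO 1 to 3, against 219, 568 and 424 CPM in control 1 to 3. In all 3 genes control 1 was lowest and Cdo1AKO 2 next, and control 2 lay among the Cdo1AKO values. The log2 fold changes were 0.34 ± 0.49, adjusted p = 0.826 for H2-Aa, 0.28 ± 0.49, adjusted p = 0.859 for H2-Ab1 and 0.35 ± 0.44, adjusted p = 0.802 for H2-Eb1 by edgeR. In the 4 libraries with lymph node transcripts they were 0.29 ± 0.19, adjusted p = 0.329, 0.20 ± 0.19, adjusted p = 0.522 and 0.33 ± 0.16, adjusted p = 0.202 in the same order. The chains of I-A kept a nearly fixed ratio, H2-Aa standing at 96.4%, 91.3% and 97.8% in Cdo1AKO 1 to 3, against 95.5%, 90.3% and 92.6% in control 1 to 3 of H2-Ab1 in FPKM.

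Cd74 encodes the invariant chain, which fills the groove of new class II molecules and guides them to endosomes. It had 1617, 661 and 1493 CPM in Cdo1AKO 1 to 3, against 421, 1548 and 1127 CPM in control 1 to 3. Ciita, the transactivator on which class II transcription depends, had 74.0, 13.3 and 75.7 CPM in Cdo1AKO 1 to 3, against 5.28, 115 and 68.0 CPM in control 1 to 3. Both genes were lowest in control 1 and then Cdo1AKO 2, and highest in a Cdo1AKO library for Cd74 and in control 2 for Ciita. The log2 fold changes were 0.28 ± 0.56, adjusted p = 0.876 for Cd74 and -0.21 ± 1.06, adjusted p = 0.955 for Ciita by edgeR. Leaving out 1 library at a time moved them from -0.097 to 0.69 and from -0.76 to 0.56, so neither direction held throughout.

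The 2 libraries without lymph node transcripts still held class II RNA, and they allow a look at the rest of the tissue with 1 library per genotype and no test. H2-Aa had 312 CPM in Cdo1AKO 2 and 212 CPM in control 1, and Cd74 had 661 CPM in Cdo1AKO 2 and 421 CPM in control 1. Ciita had 13.3 CPM in Cdo1AKO 2 and 5.28 CPM in control 1. H2-DMb1, a beta chain of H2-DM, had 52.2 CPM in Cdo1AKO 2 and 11.7 CPM in control 1. All 9 class II genes with an H2- symbol were higher in Cdo1AKO 2 than in control 1, H2-Oa and H2-Eb2 by a few counts only. The share of all genes in that order was not computed. B cell markers also summed higher in Cdo1AKO 2, at 7.40 CPM against 2.45 CPM in control 1. Lymph node stroma markers summed lower, at 5.15 CPM in Cdo1AKO 2 against 7.06 CPM in control 1. The part of residual B cells in these class II levels was not tested. Macrophage markers, 10 genes, summed to 389.6, 568 and 402 CPM in Cdo1AKO 1 to 3, against 384, 296 and 326 CPM in control 1 to 3. Itgax, the CD11c gene of dendritic cells and of some fat macrophages, had 23.6 CPM in Cdo1AKO 2 and 2.82 CPM in control 1. Itgax had the widest gap of the dendritic cell markers in this pair. Zbtb46 (37.8 and 32.4 CPM), Clec9a (5.79 and 5.15 CPM) and Clec10a (55.7 and 46.6 CPM) differed less. Cd209a (5.28 and 2.58 CPM) and Batf3 (5.02 and 2.64 CPM) were also higher in Cdo1AKO 2. Ccr7, Siglech and Xcr1 were higher too, at no more than 1.03 CPM in either library. Flt3 (0.643 and 0.859 CPM) and the macrophage markers Cd163 (78.4 and 82.4 CPM) and Lyve1 (16.8 and 19.3 CPM) were lower in Cdo1AKO 2. All other macrophage markers were higher in Cdo1AKO 2, among them Trem2 (19.1 and 1.78 CPM), Gpnmb (74.5 and 23.9 CPM) and C1qa (123 and 97.9 CPM). Of the 10 macrophage markers, 4 were higher (Adgre1, Csf1r, Cd68 and Trem2) and 1 lower (Lyve1) in Cdo1AKO over all 6 libraries at an unadjusted p under 0.05. The background was 4.66% on the higher side and 5.71% on the lower side, and none of these markers passed at an adjusted p under 0.05. The part of macrophages in the class II levels was not tested.

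H2-O, H2-DMb2 and H2-Eb2 nearly vanished without lymph node transcripts, while H2-DMa, H2-DMb1 and H2-Eb1 did not. H2-Ob, the beta chain of H2-O, which B cells make in quantity, had 117, 2.06 and 123 CPM in Cdo1AKO 1 to 3, against 0.307, 157 and 94.1 CPM in control 1 to 3. H2-Oa, its alpha chain, had 19.6, 0.257 and 19.98 CPM in Cdo1AKO 1 to 3, against 0.0614, 22.0 and 14.6 CPM in control 1 to 3. Cdo1AKO 2 and control 1 were far below the other 4 libraries in both chains, and B cell markers had the same order with their lowest sum in control 1. H2-DMa, the alpha chain of H2-DM, had 67.4, 22.6 and 60.5 CPM in Cdo1AKO 1 to 3, against 14.2, 58.6 and 41.9 CPM in control 1 to 3. H2-DMb1 had 53.0, 52.2 and 54.0 CPM in Cdo1AKO 1 to 3, against 11.7, 57.4 and 37.5 CPM in control 1 to 3, and Cdo1AKO 2 was level with Cdo1AKO 1 and 3. H2-DMb2, the second beta chain gene beside it, had 70.9, 2.06 and 75.8 CPM in Cdo1AKO 1 to 3, against 0.614, 106 and 63.1 CPM in control 1 to 3, a drop in Cdo1AKO 2 and control 1 that H2-DMb1 did not have in Cdo1AKO 2. H2-Eb2 had 19.9, 0.322 and 23.3 CPM in Cdo1AKO 1 to 3, against 0, 22.5 and 12.9 CPM in control 1 to 3, and H2-Eb1 far more.

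As a share of its partner in FPKM, H2-Ob stood at 104%, 1.86% and 107% in Cdo1AKO 1 to 3, against 1.23%, 129% and 118% in control 1 to 3 of H2-DMb1. H2-Oa stood at 36.4%, 1.42% and 41.2% in Cdo1AKO 1 to 3, against 0.541%, 46.9% and 43.5% in control 1 to 3 of H2-DMa. H2-DMb2 stood at 116%, 3.42% and 122% in Cdo1AKO 1 to 3, against 4.55%, 159.6% and 146% in control 1 to 3 of H2-DMb1. In the 4 libraries with lymph node transcripts the 3 shares were lower in both Cdo1AKO libraries than in both controls. In the other 2 they were under 5% in each genotype. H2-Ob and H2-DMb2 were both set against H2-DMb1, so their shares are not separate observations. How often other gene pairs show such an order was not computed. None of the 5 non-classical class II genes was called in the fit over the 4 libraries. By edgeR over all 6 libraries none of the 5 non-classical class II genes passed, with log2 fold changes of -0.057 ± 1.76, adjusted p = 0.994 for H2-Ob, 0.12 ± 1.64, adjusted p = 0.986 for H2-Oa and -0.19 ± 1.60, adjusted p = 0.975 for H2-DMb2. H2-DMa was at 0.39 ± 0.60, adjusted p = 0.838 and H2-DMb1 at 0.58 ± 0.52, adjusted p = 0.717. With the lymph node term H2-DMa was at 0.45 ± 0.16, adjusted p = 0.165. H2-DMb1 and H2-DMb2 share 13.7% of the 100-base stretches of the H2-DMb1 transcript, so part of their reads may be split between them.

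**Figure D5:**
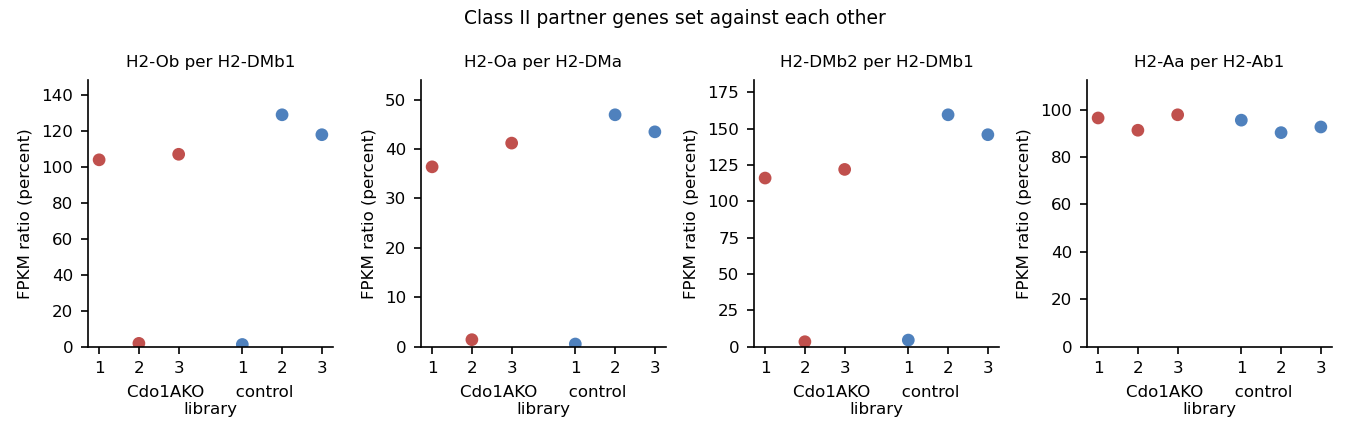
FPKM of class II genes as a percent of a partner gene in each library, Cdo1AKO in red and control in blue. H2-Ob, H2-Oa and H2-DMb2 fall under 5% of their partner in Cdo1AKO 2 and control 1, while H2-Aa stays between 90.3% and 97.8% of H2-Ab1.

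The start regions of 4 class II genes are shown because H2-Eb1 and H2-DMb1 kept RNA in Cdo1AKO 2 and control 1 while H2-DMb2 and H2-Ob nearly lost it. They run from 250 bases before to 50 bases after the RefSeq start on GRCm38.p6, 5′ to 3′, at chr17:34305617-34305916, chr17:34152941-34153240, chr17:34144999-34145298 and chr17:34238655-34238954, all on the plus strand. Capitals mark matches on either strand to CCAAT, which as ATTGG forms the Y box, and to AGNNACNNATG, the letters that the X boxes of H2-Eb1, H2-DMb1, H2-Oa and H2-Ob share; the X box is the element that RFX binds and through which Ciita acts.
H2-Eb1: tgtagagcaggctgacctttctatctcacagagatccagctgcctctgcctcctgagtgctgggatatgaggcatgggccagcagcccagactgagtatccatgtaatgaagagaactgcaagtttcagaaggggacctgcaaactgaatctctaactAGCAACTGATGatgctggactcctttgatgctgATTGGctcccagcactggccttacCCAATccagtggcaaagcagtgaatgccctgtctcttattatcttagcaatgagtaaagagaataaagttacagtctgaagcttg
H2-DMb1: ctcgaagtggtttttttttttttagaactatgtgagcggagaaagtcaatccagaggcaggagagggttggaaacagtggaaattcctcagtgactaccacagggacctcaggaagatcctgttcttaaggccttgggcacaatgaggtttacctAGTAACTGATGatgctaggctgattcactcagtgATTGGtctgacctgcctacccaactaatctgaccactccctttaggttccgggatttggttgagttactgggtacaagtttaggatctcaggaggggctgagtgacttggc
H2-DMb2: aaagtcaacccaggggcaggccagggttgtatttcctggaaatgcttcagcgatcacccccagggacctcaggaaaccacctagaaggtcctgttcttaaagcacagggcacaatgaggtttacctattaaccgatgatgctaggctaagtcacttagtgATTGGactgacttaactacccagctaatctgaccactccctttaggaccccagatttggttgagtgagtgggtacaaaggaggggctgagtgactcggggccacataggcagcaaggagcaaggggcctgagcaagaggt
H2-Ob: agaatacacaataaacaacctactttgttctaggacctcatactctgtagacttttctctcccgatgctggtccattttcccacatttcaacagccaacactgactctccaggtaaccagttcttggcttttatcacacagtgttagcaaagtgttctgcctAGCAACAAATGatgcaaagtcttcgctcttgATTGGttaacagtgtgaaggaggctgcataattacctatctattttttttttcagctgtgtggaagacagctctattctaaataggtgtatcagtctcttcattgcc
H2-Eb1, H2-DMb1 and H2-Ob each held the X type match upstream of an ATTGG, at 92, 95 and 88 bases before the start. The H2-DMb2 region held ATTGG 90 bases before its start and no exact X type match in this window. Between the same flanking letters, where H2-DMb1 reads AGTAACTGATG, H2-DMb2 reads attaaccgatg. That stretch departs from the pattern only in reading at for AG, and H2-DMb2 was not among the genes from which the pattern was read. AGNNACNNATG occurred in 1016 of 32851 promoters (3.09%) and in 10 of the 34 genes of the list with an entry. These 10 were the 4 class II genes from which it was read, H2-Eb2, and H2-T23, H2-M10.1, H2-M10.2, H2-M10.5 and H2-M10.6 of class I. The X and Y matches thus stood both in genes that kept RNA without lymph node transcripts and in genes that nearly lost it, and a match describes letters only.

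Around these genes, 34 further genes of antigen processing and of its control were tested, among them the immunoproteasome, endosomal proteases, RFX factors and co-receptors. None passed at an adjusted p under 0.05 in the edgeR fit. At an unadjusted p under 0.05, 1 was higher and 0 were lower, beside 4.66% and 5.71% of all genes. Of the 34 log2 fold changes, 28 were positive and 6 negative, with a median of 0.34, beside 56.0% positive and a median of 0.058 over all genes tested. Lgmn, a lysosomal protease that cuts after asparagine, was the 1 higher gene. Its level was 88.0, 128 and 90.4 CPM in Cdo1AKO 1 to 3, against 64.9, 65.0 and 67.0 CPM in control 1 to 3. The groups did not overlap, and Cdo1AKO 2 was highest (log2 fold change 0.64 ± 0.18, adjusted p = 0.362 by edgeR). Ctsd, the lysosomal protease cathepsin D, had 556, 1388 and 545 CPM in Cdo1AKO 1 to 3, against 470.0, 502 and 508 CPM in control 1 to 3. Cd1d1, which presents lipids to natural killer T cells, had 324, 668 and 328 CPM in Cdo1AKO 1 to 3, against 300.05, 273 and 287 CPM in control 1 to 3. Like Lgmn, both had every Cdo1AKO library above every control, an order that 8.87% of all genes tested showed. In both, Cdo1AKO 2 was far above the rest. Psme2, a subunit of the proteasome activator PA28, had 83.0, 119.9 and 121 CPM in Cdo1AKO 1 to 3, against 84.9, 80.3 and 71.3 CPM in control 1 to 3, and Psmb10, an immunoproteasome subunit, had 86.9, 78.3 and 90.6 CPM in Cdo1AKO 1 to 3, against 68.5, 75.1 and 62.7 CPM in control 1 to 3. In the 4 libraries with lymph node transcripts 8 of the 34 rose (Lgmn, Psme1, Ifi30, Cd86, Cd8a, Tapbpl, Cd4 and Psmb9) and 0 fell, beside 7.65% and 7.7% of all genes, and Cd4 and Cd8a are T cell markers.

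The other 12 of the 41 genes had too few counts to be tested. H2-M1, H2-M10.3, H2-M10.4 and H2-M10.5 had 0 counts in all 6 libraries, and H2-M10.1 and H2-M10.6 had 1 count each. H2-M10.2 had 5 counts in total, H2-M11 had 4 and H2-T3 had 7. H2-M10 genes are known in mice from sensory neurons of the vomeronasal organ. H2-Q2 had 20, 0 and 9 counts in Cdo1AKO 1 to 3, against 0, 12 and 10 counts in control 1 to 3, so it too was at 0 in the libraries without lymph node transcripts. H2-M5 had 17, 7 and 23 counts in Cdo1AKO 1 to 3, against 7, 6 and 4 counts in control 1 to 3. It passed in the 4 libraries (1.94 ± 0.53, adjusted p = 0.0495 by edgeR) and is named because of that call. H2-Ke6, with 45 counts in total, shares the H2- symbol only: it encodes a hydroxysteroid dehydrogenase and no MHC molecule.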

How the data were processed

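The authors deposited raw counts per gene and FPKM values for 6 libraries in 1 table, per the file headers, and with them a comparison of their own (log2 fold change, p-value, adjusted p-value). The submitters' processing notes list mm10, HISAT2 2.0.5, DESeq2 1.20.0 and featureCounts 1.5.0-p3, and give no roles; strand and multi-mapping settings are not given in the sources used here. The deposited FPKM equals the count per kilobase divided by 1 constant per library, 15.7 to 20.1 (in units of 1e+06 reads), not the library total. Total counts were 17965163, 18065810 and 16275184 in Cdo1AKO 1 to 3 and 17830940, 17959740 and 19205804 in control 1 to 3.

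Of 54532 genes, 16623 passed edgeR's filterByExpr and were tested in edgeR 4.0.16 (R 4.3.3; TMM factors, quasi-likelihood test, group as the only term). Benjamini-Hochberg adjustment ran over all tested genes, with a threshold of 0.05. CPM uses TMM-scaled library sizes; errors are SE for log2 fold changes and SD over 3 libraries for levels. A count of 0 was read as allowing up to 3 counts, for counting error only. The test was checked on simulated counts. Named genes were the classical, loading, class II and control genes, the 8 other H2- genes with most counts and every member at an unadjusted p under 0.05. Members and lists were chosen with earlier results of these data known. Some genes outside the members are not reported here. The lymph node term marks libraries whose median CPM of B cell and lymph node stroma markers was above 5. It and the fit over 4 libraries were chosen after seeing the data. Alternatives were other scaling factors and filters, DESeq2 1.42.0, limma-voom (limma 3.58.1), robust estimation, a replicate block and each library left out. Promoters came from RefSeq (GRCm38.p6) for 34 of the 41 genes, aligned with Biopython 1.88, and shared stretches from GENCODE transcripts.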

Additional observations from a re-analysis of the deposited data

How the results depend on the processing

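Over all genes, 0 passed at an adjusted p under 0.05 by edgeR under every scaling, filter, robust, block and leave-one-out setting and by limma-voom, while DESeq2 called 271, the lymph node term 686 and the 4 libraries 2617. The list's calls were 1, 2 and 10 in these 3 settings. At an unadjusted p under 0.05 the count over all genes was 909 with the replicate block, 3807 with the lymph node term and 5449 in the 4 libraries, and 858 to 4707 with 1 library left out, the top without Cdo1AKO 2. The list's higher genes at that p were 2 with every gene of at least 1 count, 0 with the replicate block, 3 with the term, 13 in the 4 libraries and 0 to 11 with 1 library left out; its lower genes were 1 to 2. Same-numbered libraries correlated at -0.66, -0.66 and 0.42, and none correlated best with its own number. The correlations followed the lymph node split, with 0.70 for Cdo1AKO 2 and control 1. They therefore cannot show whether the replicate numbers mark pairs.

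The classical class I median was 0.16 without scaling factors. With 1 library left out, the medians ran from 0.034 to 0.11 for classical class I, 0.28 to 0.88 for non-classical class I, 0.19 to 0.40 for loading genes, -0.034 to 0.73 for classical class II, -0.46 to 0.83 for non-classical class II and -0.43 to 0.63 for Cd74 and Ciita.

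H2-Q10, H2-M2, Tapbp, Tap1, H2-M3, H2-Q4, H2-Q6 and H2-Q7 kept their sign in all 17 alternatives. So did H2-K1, H2-T22 and the class II genes H2-DMb1, H2-Eb1 and H2-Aa, the last with a lowest value of 0.0030. H2-Q1 kept its sign in the 16 alternatives that could test it. Other log2 fold changes turned sign with limma-voom for Nlrc5 (-0.012), H2-T23 (-0.012), Ciita (0.26), H2-DMb2 (0.45) and H2-Ob (0.80). They turned with the replicate block for Ciita (0.22), H2-DMb2 (0.28) and H2-Ob (0.41), and with the term for Ciita (0.16), H2-DMb2 (0.081) and H2-Ob (0.27). Total counts turned H2-D1 (0.0024) and H2-Ob (0.079), and the 4 libraries turned B2m (-0.020) and H2-M9 (-0.33). With 1 library left out, Nlrc5 ran from -0.020 to 0.66, B2m ran from -0.041 to 0.41, H2-T24 ran from -0.0093 to 0.65, Tap2 ran from -0.023 to 0.40, H2-Oa ran from -0.46 to 0.85, Ciita ran from -0.76 to 0.56, Cd74 ran from -0.097 to 0.69, H2-Ab1 ran from -0.071 to 0.71, H2-M9 ran from -0.47 to 0.74, H2-DMb2 ran from -0.77 to 0.63, H2-Eb2 ran from -0.29 to 1.16, H2-DMa ran from -0.0077 to 0.83, H2-T23 ran from -0.047 to 0.62, H2-Ob ran from -0.64 to 0.77. The causes were not tested.

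With 3 libraries a group that differ in lymph node content, the comparison is imprecise: the SE of H2-Ob was 1.76 over 6 libraries and 0.22 over 4. The 4-library fit compares 2 with 2, and Cdo1AKO 1 and 3 were unusually alike, so its adjusted p reflects the spread of those 4 libraries only.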

Other observations

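The 11 H2- rows that the table lists as pseudogenes were left out of the list, and 4 of them held many counts. H2-Q5 had 1823, 290 and 1653 counts in Cdo1AKO 1 to 3, against 453, 1214 and 930 counts in control 1 to 3. H2-K2 had 818, 125 and 736 counts in Cdo1AKO 1 to 3, against 187, 497 and 331 counts in control 1 to 3, and H2-T10 had 855, 132 and 695 counts in Cdo1AKO 1 to 3, against 196, 443 and 371 counts in control 1 to 3. H2-T-ps had 131, 16 and 121 counts in Cdo1AKO 1 to 3, against 33, 102 and 87 counts in control 1 to 3. Cdo1AKO 2 and control 1 were lowest in each of the 4, the order also seen in H2-Q6, H2-Q7 and H2-T23. Reads that these near copies share with the coding class I genes cannot be told apart, as the sources used here name no multi-mapping setting.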
